A study of Mus musculus with 6 samples.

Results

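The libraries described here follow mouse embryonic stem cells (ESCs) labelled as depleted of the histone variant H2A.Z through 3 days of differentiation as embryoid bodies (EBs). They are 2 of the 6 RNA-Seq libraries of the study, H2A.Z KD at D0 (ESCs) and H2A.Z KD at D3 (EBs), and were chosen by their line label. The other 4 libraries are D0 and D3 of H2A.Z WT, which carries a YFP-tagged wild-type H2A.Z transgene, and of H2A.Z AP3, which carries the acidic patch mutant. There was 1 library per condition, so differences between days within the KD line have no replicate check, could not be tested and carry no p-value. Of 21639 gene entries in the deposited table, 12184 had at least 1 RPKM (reads per kilobase of transcript, scaled to the mapped reads of the library) in either H2A.Z KD library and were compared. The change of a gene is log2((D3 RPKM + 1)/(D0 RPKM + 1)), which understates the change of low genes. A gene is said to have risen or fallen when it passed 2-fold on that scale.

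The labels give the strain as V6.5 (129SvJaexC57BL/6) and the source as ES cells for every library, whereas the transgenic lines were, per the study's methods, made in KH2 ESCs. The YFP-tagged transgenes were switched on with doxycycline and the positive cells sorted. Lentiviral hairpins that target the endogenous H2afz mRNA in its 3′ untranslated region (UTR), selected with blasticidin, were put into these transgenic lines, so WT and AP3 in this design carry a hairpin as well. The labels do not say which of the hairpins the H2A.Z KD libraries carry, whether their cells hold a transgene or received doxycycline, or whether the line is a clone. Hairpin-bearing cells were grown on blasticidin-resistant feeder fibroblasts and moved to plates without feeders for the last passage. EBs were made by aggregation on non-adherent plates in medium without leukemia inhibitory factor (LIF).

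EBs are suspended clumps of ESCs that begin to differentiate once LIF is withdrawn. An outer layer of primitive endoderm forms on the surface, lays down a basement membrane and matures into visceral endoderm, an absorptive and secretory epithelium that takes up nutrients and makes apolipoproteins and carrier proteins before the liver exists. The inner cells leave the naive state for a formative, epiblast-like state, from which the primitive streak and the germ layers arise later. H2A.Z replaces H2A in nucleosomes around transcription start sites, including those of developmental regulators held silent by Polycomb in ESCs.

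The hairpin targets are shown because they locate the knockdown. Both lie in the 3′ UTR of H2afz on the plus strand of chromosome 3 (mm9), which GENCODE places at chr3:137529412-137529886. In each line the 21 bases of the hairpin oligo are in capitals within 30 bases of the mm9 genome, and each oligo has 1 exact match on that chromosome. The oligos are numbered as in the labels, whereas the methods text of the study calls the first sh#1 and the second sh#2. The sh#2 bases are at chr3:137529455-137529475 and the sh#5 bases at chr3:137529551-137529571.
H2afz sh#2 target: tcctAACAGCTGTCCAGTGTTGGTGattcc
H2afz sh#5 target: gcttAATTAGCCTTCCAACCAACCAaattt

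At D0, H2afz itself was not lower under the KD label than in the other lines. Its level was 343 RPKM in H2A.Z KD, 279 in H2A.Z WT and 304 in H2A.Z AP3 at D0, and 236, 258 and 394 RPKM at D3. The H2A.Z KD library was thus the highest of the 3 at D0 and the lowest at D3, where it stood close to H2A.Z WT. Reads from a transgene's coding sequence fall on the same exons as endogenous reads, and the RPKM of the whole gene does not separate them. From D0 to D3 H2afz changed by -0.53 in the KD line (95% counting interval of the log2 RPKM ratio, -0.59 to -0.48), within 2-fold. H2afv, which encodes the near-identical second H2A.Z protein, was at 57.2 and 56.4 RPKM. Of 15 measured genes for H2A.Z and its exchange machinery, which loads and removes the variant through the SRCAP, p400-Tip60 and INO80 complexes, none passed 2-fold, and the largest changes after H2afz were those of Anp32e (-0.22), an H2A.Z-removing chaperone, and Ep400 (-0.19). These RNA values cannot show the knockdown, because WT and AP3 carry a hairpin as well and transgene reads are not separated. Each statement below is about the libraries labelled H2A.Z KD.

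Depth was estimated from the density peak of the lowest values of RPKM times transcript length, over genes with 1 annotated transcript. That peak was assumed to be 1 read. The estimates were 18.3 M reads for H2A.Z KD D0 and 23.7 M for D3 (12.9 to 23.7 M over the 6 libraries). A gene of 2 kilobases with 1 read is worth 0.0273 and 0.0211 RPKM in these libraries. The estimates give 95% Clopper-Pearson intervals of the log2 RPKM ratio without a pseudocount, which cover counting error only and not the spread between cultures. Pluripotency markers fitted the ES cell label at D0, with Pou5f1 (Oct4) at 413 RPKM, Sox2 at 196 and Nanog at 115. Nanog is read from an entry that it shares with a pseudogene. In bulk RNA, fewer cells of a type and less RNA per cell cannot be told apart, which holds for every result here.

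Between D0 and D3, 302 genes rose (2.48% of those compared) and 348 fell (2.86%), while 11534 stayed within 2-fold. The median change was 0.04, with quartiles of -0.19 and 0.27, and 84.6% of genes stayed within 1.5-fold. Only 63 genes rose and 74 fell past 4-fold, and 3 rose and 5 fell past 16-fold. The genes that rose came from low levels, with medians of 2.46 RPKM at D0 and 9.33 at D3, and 95 of them were under 1 RPKM at D0. The genes that fell had medians of 5.71 RPKM at D0 and 1.02 at D3. Small RNA genes made up 21 of the rises and 57 of the falls, although sequencing started from RNA selected for poly(A) tails. Without these entries, the histone cluster genes, and Rpph1, Rprl3 and Lars2, which led the differences from WT, a choice made after seeing the data, 281 genes rose and 260 fell. Among genes with a transcript length, the counting interval left out no change for 283 of 294 that rose and 296 of 316 that fell. The intervals come from the same values as the calls, so these counts are no independent support.

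**Figure D1:**
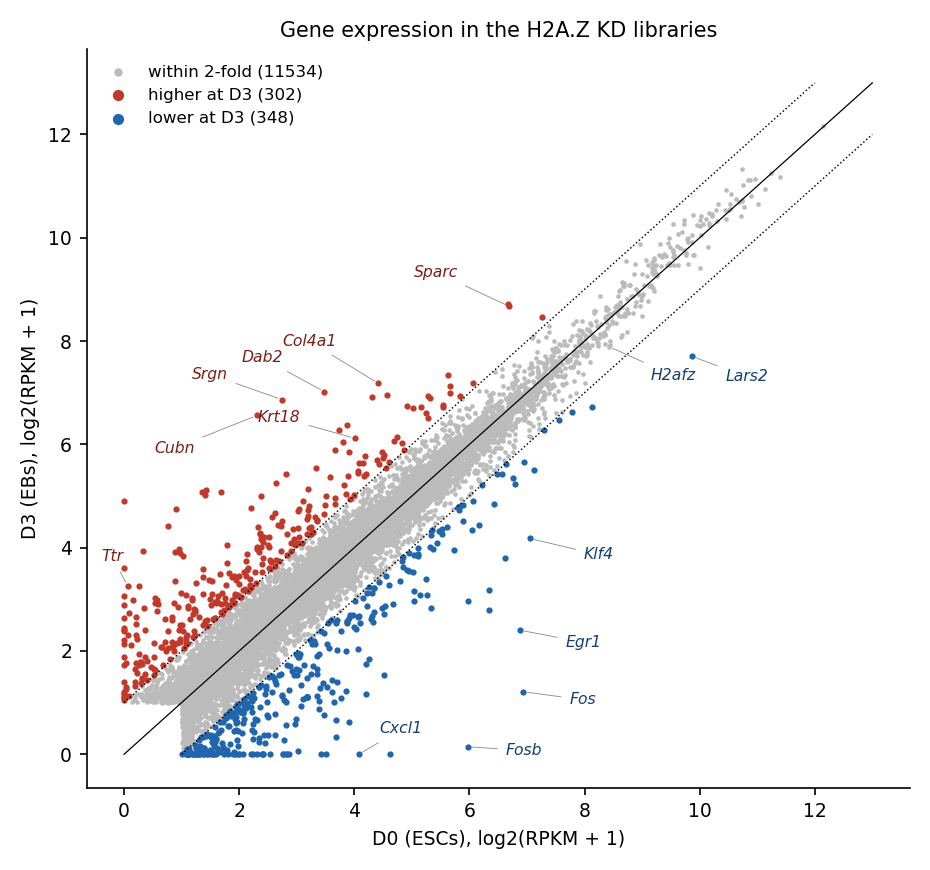
Level of each of the 12184 compared genes in the H2A.Z KD library at D0 (x axis) and D3 (y axis), both as log2(RPKM + 1). The solid line marks equal levels and the dotted lines 2-fold, red points are the 302 genes that rose and blue points the 348 that fell, and labelled genes include Cubn and Dab2 above the diagonal and Fos and Fosb below it.

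Of the 39 lists examined, that of visceral endoderm had the largest median rise in the KD line. Of 26 primitive and visceral endoderm genes, all measured, 21 rose and none fell, with a median change of 1.96 against 0.04 over all compared genes. The uptake receptor of this epithelium showed it most plainly. Cubn (cubilin, chr2:13197965-13413503), the receptor for vitamin B12 complexes and apolipoproteins, went from 3.95 to 93.3 RPKM, a change of 4.25 (counting interval 4.32 to 4.82). Amn (amnionless), which carries cubilin to the cell surface, went from 1.69 to 33.7 RPKM. Lrp2 (megalin), its endocytic partner, went from 6.06 to 41.7 RPKM, and Dab2 (chr15), the adaptor that drives their internalisation, from 10.2 to 129 RPKM. All 4 of these uptake genes rose.

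The transcription factors of the endoderm rose together, 8 of 8. Gata4 went from 4.94 to 23.2 RPKM and Gata6, which is needed to specify primitive endoderm, from 4.38 to 17.4 RPKM. Sox17 changed by 2.15, Hnf4a by 2.00, Sox7 by 1.76, Foxq1 by 1.70 and Foxa2 by 1.24. Hnf4a, a regulator of visceral endoderm and later of liver genes, was still low at D3, at 3.68 RPKM.

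The secreted and transport proteins split by level. Ttr (transthyretin, a thyroid hormone carrier) went from 0.043 RPKM, about 1 read, to 8.57 RPKM. Rbp4 (retinol binding protein) went from 0.932 to 14.7 RPKM and Apoa1 from 0.199 to 8.57 RPKM. Apob, the scaffold of lipoprotein particles, went from 0.0638 to 5.62 RPKM, and Afp (alpha-fetoprotein) from 0.0245 to 2.38 RPKM. Apoa4 was listed at 0 at D0 and reached 2.71 RPKM. These genes were close to silent in ESCs, whereas Apoe, the most abundant member, was at 421 RPKM at D0 and 752 at D3, a change of 0.84 that did not pass 2-fold. Apoa2 changed by -0.58, Trf by -0.08, Fgfr3 by 0.25 and Bmp2 by 0.44, and these are the other members within 2-fold. The signal and adaptor genes Ihh (2.04), Pdgfra (1.23) and Amot (2.62) also rose.

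The other lines show how far this went. In H2A.Z WT 16 of the 26 genes rose and in H2A.Z AP3 9, against 2.34% and 1.86% of all genes compared in those lines, with median changes of 1.33 and 0.66. The KD change was above the WT change for 22 of the 26. Summed without Apoe, the list went from 72.6 to 493 RPKM in H2A.Z KD, from 66.4 to 201 in H2A.Z WT and from 134 to 251 in H2A.Z AP3. The KD and WT lines began at like levels and the KD line ended above WT, while the AP3 line began above both. At D3 the KD library was the highest of the 3 for 24 of the 26 genes, and the exceptions were Apoe and Apoa2. With Apoe included the sums at D3 were 1246, 1210 and 963 RPKM, since Apoe reached 1009 RPKM in H2A.Z WT. Cubn stood at 26.2 RPKM in WT and 34.6 in AP3 EBs, Dab2 at 41.8 and 70.3, and Rbp4 at 3.16 and 1.57, all below the KD EBs. With 1 library per condition, the line and the culture cannot be told apart.

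**Figure D2:**
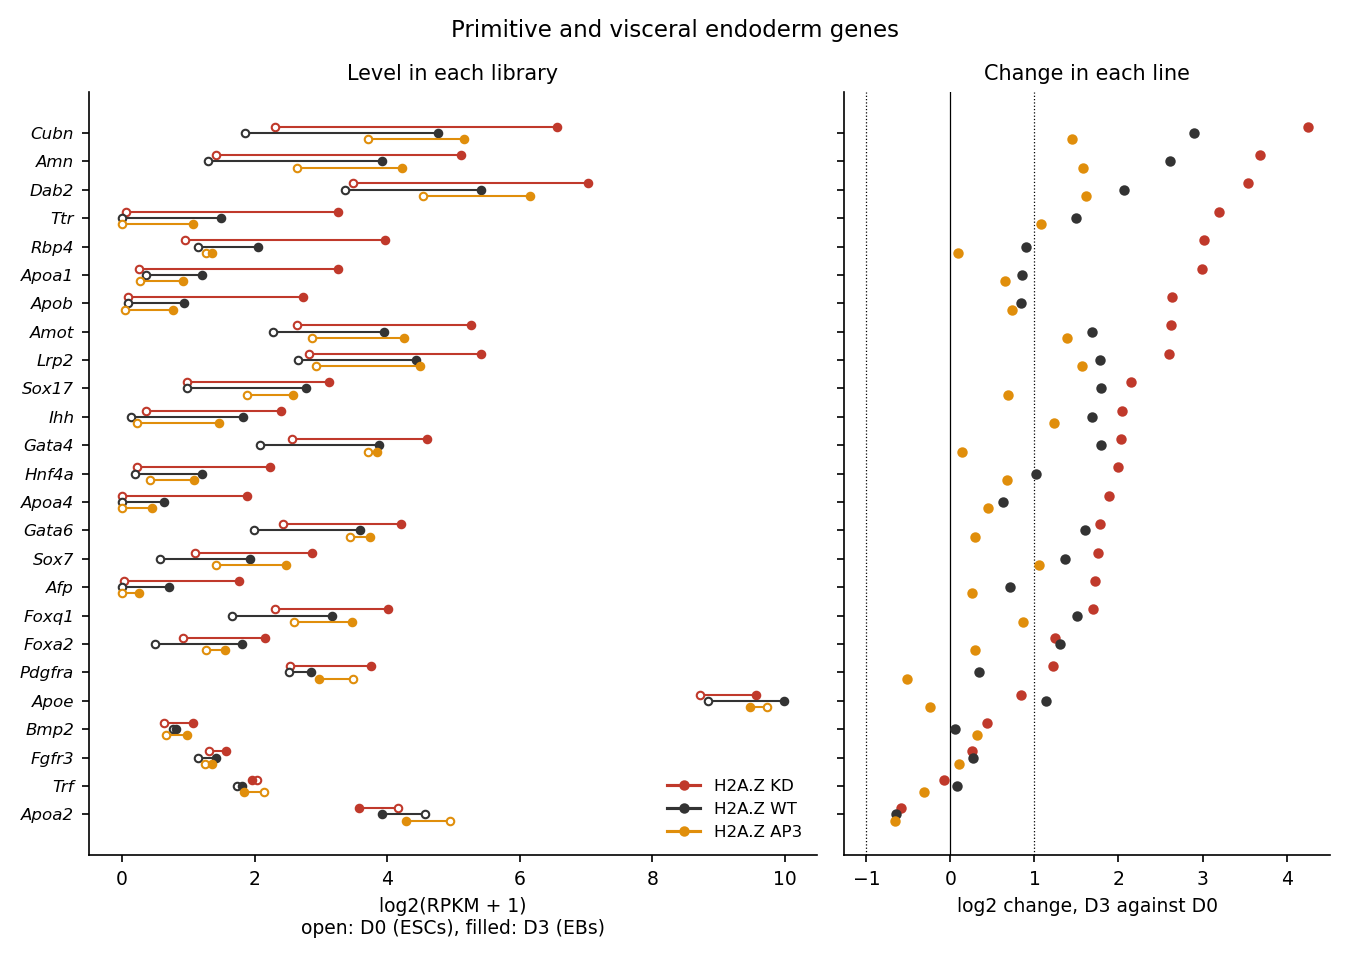
Primitive and visceral endoderm genes (25 of the 26), ordered by their change in H2A.Z KD. The left panel gives log2(RPKM + 1) in each of the 6 libraries (open points D0, filled points D3, 1 library each) and the right panel the log2 change from D0 to D3, where 20 red KD points lie beyond the dotted 2-fold line at 1 and 21 lie to the right of the WT points.

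Basement membrane genes, whose products the endoderm lays down, rose in 7 of 13 cases with a median change of 1.12 (0.66 in WT and -0.10 in AP3). The chains of the embryonic laminin went up together, Lama1 from 22.8 to 123.4 RPKM, Lamb1 from 48.3 to 160 and Lamc1 from 65.8 to 144. The collagen IV chains Col4a1 (20.3 to 144 RPKM) and Col4a2 (13.6 to 81.6 RPKM) rose by more. Sparc, a matrix glycoprotein, went from 102 to 408 RPKM, and Serpinh1, the collagen chaperone, from 49.8 to 139. Lama5 (-0.16), Nid1 (-0.33) and Fn1 (-0.50) did not pass 2-fold in either direction. On the hypoxia list the collagen prolyl hydroxylase genes moved the same way, P4ha1 from 14 to 57.1 RPKM and P4ha2 from 6.6 to 19.7. In AP3, Lama1 was already at 65.2 RPKM at D0 and stood at 64.7 at D3.

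Several of the 15 largest rises (genes with at least 5 RPKM at D3, small RNA genes left out) lie outside the lists. Srgn (serglycin, a granule proteoglycan) went from 5.69 to 116 RPKM, Aqp8 (a water channel) from 0.861 to 25.9 and Pth1r (the parathyroid hormone receptor) from 1.55 to 32.6. Ctsh (cathepsin H, a lysosomal protease) went from 1.66 to 31.5 RPKM, Clic6 from 0.701 to 20.5 and the X-linked Nxf7 from 0.25 to 14.4. Spink3 (2.21 to 32.8 RPKM) and Hkdc1 (0.963 to 14 RPKM) complete the set together with Cyp26a1, Cubn, Amn, Dab2, Ttr, Rbp4 and Apoa1. All 15 were also positive in H2A.Z WT, with changes between 0.85 (Apoa1) and 3.46 (Spink3). These genes were picked for their KD change. Of the 287 genes that rose in WT, 102 had the larger change in KD, with median changes of 1.03 in KD and 1.28 in WT.

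None of 11 core pluripotency genes passed 2-fold, with a median change of -0.12 (-0.04 in WT and 0.30 in AP3), and at D3 the KD library was the lowest of the 3 lines for 8 of them. Pou5f1 was at 413 and 358 RPKM, Sox2 at 196 and 141, Nanog at 115 and 98.8, and Tdgf1, the Nodal co-receptor, at 428 and 289. Of 22 naive pluripotency genes 4 fell and none rose (median -0.62, and -0.48 in WT). Klf4 went from 131 to 17.1 RPKM, Tfcp2l1 from 42.4 to 16, Gbx2 from 13.6 to 3.02 and Klf2 from 98.6 to 48.3. Esrrb (-0.89), Zfp42 (-0.80), Klf5 (-0.79) and Nr5a2 (-0.64) had lower values at D3 but did not pass 2-fold, and Prdm14 (0.26) and Fgf4 (0.25) had slightly higher ones. The 4 that fell are all transcription factors, and none of the 10 other members, such as Dppa5a or Spp1, passed 2-fold.

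LIF pathway genes fell in 5 of 11 cases and rose in none (median -0.83), and the part of LIF withdrawal in this was not tested. Its direct targets fell most, 4 of 6. Socs3, the feedback inhibitor of the receptor, went from 80.3 to 5.95 RPKM, Junb from 79.6 to 8.11, Bcl3 from 9.44 to 2.84 and Pim1 from 73.8 to 36.2. Osmr, the oncostatin receptor, went from 1.34 to 0.131 RPKM, while Lifr (17.8 and 15.7) and Stat3 (20.9 and 11.7) stayed within 2-fold.

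Formative and primed epiblast genes rose in 10 of 27 cases and 1 fell (median 0.46, 0.60 in WT and 1.31 in AP3). Otx2, a driver of exit from the naive state, went from 5.14 to 24.6 RPKM, and Fgf5, its usual marker, from 1.11 to 7.45. The de novo methyltransferase Dnmt3b went from 36.9 to 96.0 RPKM, Sall2 from 2.09 to 7.35, Zic2 from 6.51 to 16, Cldn6 from 34.5 to 105 and Krt18 from 15.1 to 68.4. Car14, Pim2 and Zic5 also rose. Etv4, a target of FGF signalling, was the 1 that fell, from 34.4 to 7.53 RPKM. Sox3 (0.44) and Pou3f1 (0.37) stayed within 2-fold, where AP3 changed by 1.39 and 1.41. These AP3 values started lower, for example Otx2 at 1.37 RPKM at D0 against 5.14 in H2A.Z KD.

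Few germ layer genes beyond the endoderm rose in number, from short lists, although several shares were above the 2.48% of all compared genes. The shares were 18.2% for primitive streak and mesendoderm, 22.2% for mesoderm and heart, and 28.6% for trophectoderm. For neural and surface ectoderm the share was 12.5%, and for blood and endothelium and Hox cluster genes it was 0. Of 21 primitive streak and mesendoderm genes 11 were compared, with a median change of 0.13, and those too low included T (brachyury, 0.372 and 0.515 RPKM) and Mixl1 (0.197 and 0.249), and Eomes was at 1.33 and 2.39 RPKM. The 2 that rose were secreted inhibitors, Lefty2 of Nodal (21.3 to 57.1 RPKM) and Dkk1 of Wnt (1.82 to 7.03 RPKM). Bmp4, Sp5 and Cdx1 fell, Bmp4 from 9.24 to 1.94 RPKM. In the definitive endoderm list 4 of 7 measured genes rose, but all of these, Sox17, Foxa2 and Gata6 among them, are also on the visceral endoderm list. The median of the list was 1.24 in KD and 1.43 in WT, where 5 rose, and the KD change was below the WT change for 4 of the 7. Its summed level at D3 was 172 RPKM in KD, 206 in WT and 244 in AP3. Cxcr4 was at 0.784 and 1.58 RPKM and Cer1 at 0.485 and 0.283. Only 3 of 39 Hox cluster genes reached 1 RPKM, and of those Hoxb9 fell from 1.86 to 0.261 RPKM. In the neural and surface ectoderm list Krt8 rose (17.5 to 41.7 RPKM) and Gbx2, Neurod1 and Tubb3 fell, out of 8 measured. Among trophectoderm genes the 2 of 7 that rose were the keratins Krt8 and Krt18, which visceral endoderm also makes, and in mesoderm and heart genes the 2 of 9 were Gata4 and Pdgfra, both on the endoderm list.

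**Figure D3:**
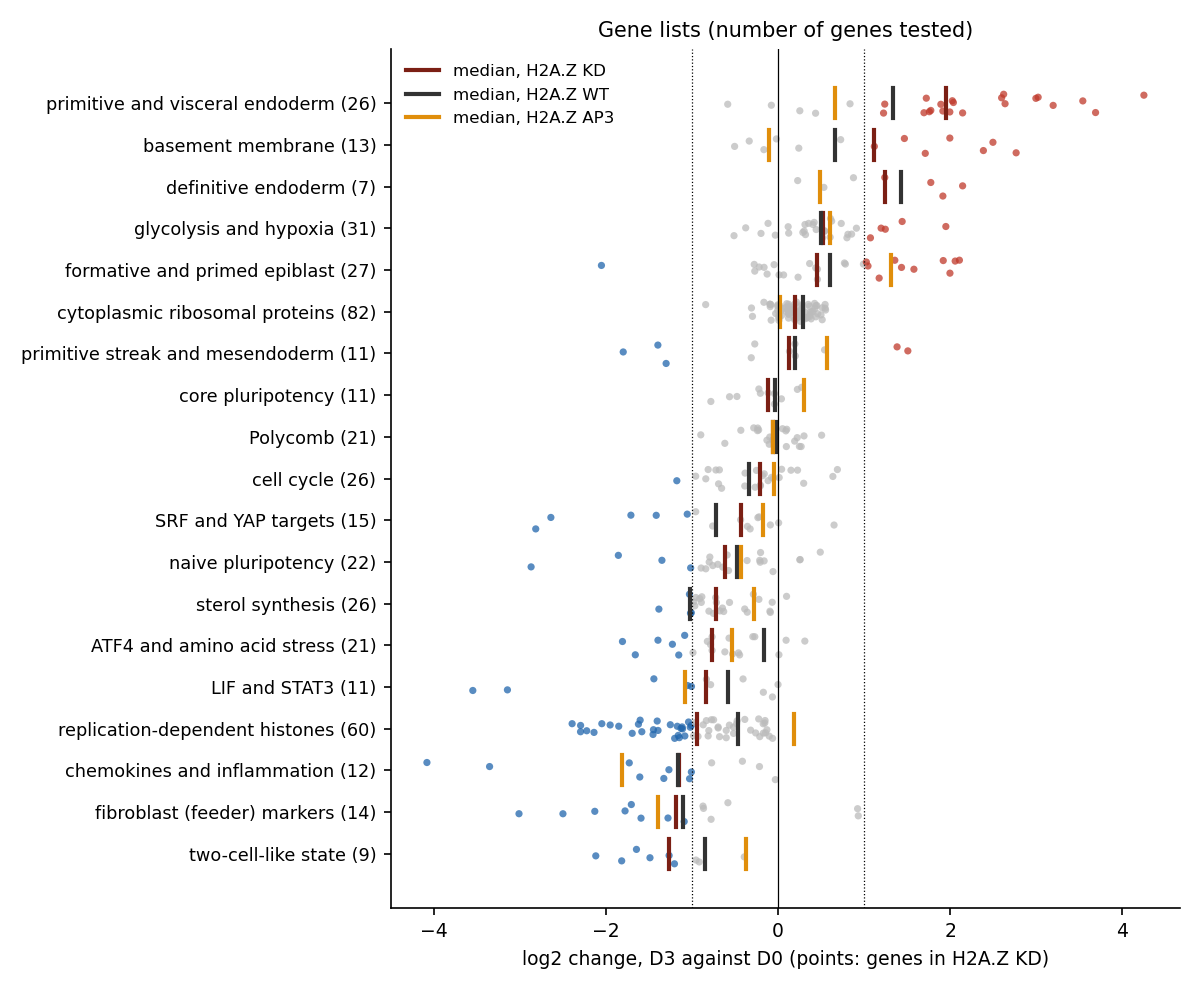
Log2 change from D0 to D3 in H2A.Z KD for each compared member of 19 gene lists (points, red past 2-fold up, blue past 2-fold down, grey within, vertical scatter only for legibility), with the list median in each line as a bar and dotted lines at 2-fold. The primitive and visceral endoderm and basement membrane bars of KD lie to the right of those of WT and AP3, the definitive endoderm bar of KD (1.24) lies to the left of that of WT (1.43), and the medians of the fibroblast, chemokine and two-cell-like lists lie below -1 in KD.

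Signalling pathways outside LIF moved in a few members, beside 2.48% of all compared genes that rose and 2.86% that fell. Among 16 Nodal pathway genes 2 rose, both of them targets and Lefty2 among them, while the ligand Nodal was at 15.3 and 12.5 RPKM and the receptors and Smad transducers stayed within 2-fold. Lefty1 was at 68.4 and 75.1 RPKM in KD, 47.8 and 95.1 in WT and 10.9 and 147 in AP3. In the BMP pathway 3 of 15 fell, the ligand Bmp4, the target Id3 (15.8 to 3.12 RPKM) and the inhibitor Grem1 (5.15 to 1.66 RPKM). In the Wnt pathway 1 of 23 rose (Dkk1) and 3 fell, the receptor Fzd5 and the targets Sp5 and Dkk3. In FGF and ERK signalling 2 ligands rose, Fgf5 and Fgf10 (1.36 to 5.79 RPKM), and 5 of 13 targets fell, Fos, Egr1, Fosl1, Etv4 and Spry4. Etv5, by contrast, was at 90.0 and 90.7 RPKM. Cyp26a1, the retinoic acid-degrading enzyme, went from 0.857 to 14 RPKM, the 1 of 10 retinoic acid genes that rose, and Crabp1 fell from 17.6 to 6.29.

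Small RNA genes left out, the deepest falls were of immediate-early genes, which respond within minutes to serum, growth factors and handling. Fosb (chr7) went from 62.0 to 0.106 RPKM and Fos (chr12) from 122 to 1.31, changes of -5.83 and -5.73. Egr1 went from 116 to 4.29 RPKM, Egr2 from 7.14 to 0.04 and Cyr61, a target of YAP and SRF, from 96.7 to 12.9. These falls were of like depth in the WT line, where Fosb changed by -5.94, Fos by -5.65 and Egr1 by -4.55, and less deep in AP3, at -4.92, -4.97 and -2.94. In SRF and YAP target genes 5 of 15 fell, Tagln, Ctgf, Cyr61, Amotl2 and Thbs1, the last from 11.6 to 1.02 RPKM.

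Many genes of fibroblasts and of inflammation fell. Of 14 compared fibroblast markers 8 fell and none rose in KD (median -1.18), 9 fell and 1 rose in WT, and 11 fell in AP3. Col1a2 went from 11.8 to 0.591 RPKM, Col1a1 from 7.42 to 0.923, S100a4 from 5.85 to 0.211 and Vim from 52.2 to 14.5. The summed level of the list went from 114 to 39.1 RPKM in KD, 165 to 47.1 in WT and 218 to 60.1 in AP3, and Lum and Postn were listed at 0 in KD EBs. Thy1 (2.42 to 5.48 RPKM) and Timp3 (2.91 to 6.47 RPKM) had higher values at D3. In chemokines and inflammation 8 of 12 fell in KD, 6 in WT and 11 in AP3, and none rose. Cxcl1 went from 15.9 RPKM to a listed 0 and Ccl2 from 11.9 to 0.260, Ccl7 from 2.32 to a listed 0 and Cxcl12 from 15.4 to 4.38. D0 cultures had been passaged off feeder fibroblasts once, and the part of remaining feeders in these falls, and in those of Bgn (21.9 to 1.88 RPKM) and Emp1 (17.4 to 1.24), was not tested.

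**Figure D4:**
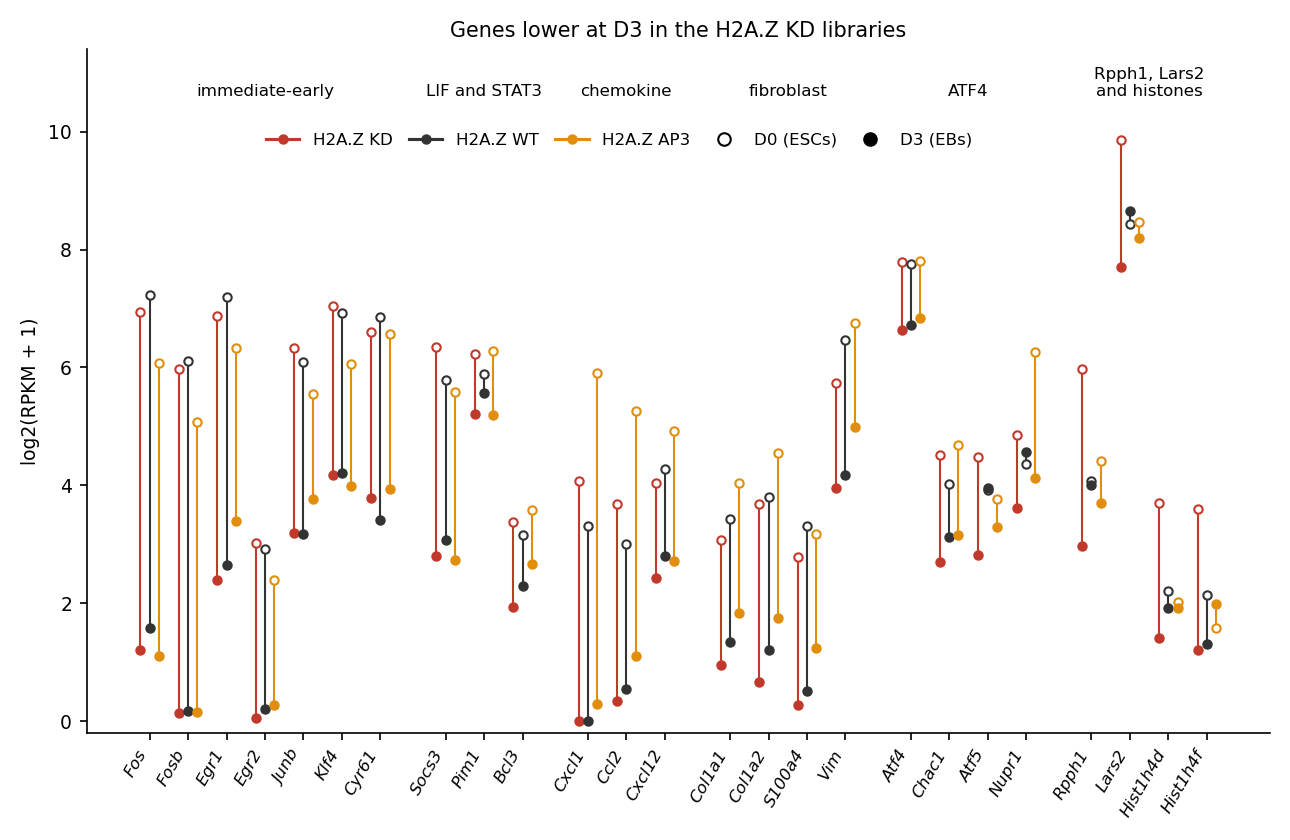
Level of 25 genes lower at D3 in H2A.Z KD, as log2(RPKM + 1) in each of the 6 libraries (open points D0, filled points D3, 1 library each). Immediate-early, chemokine and fibroblast genes are lower at D3 in each line shown, whereas Atf5, Rpph1, Lars2 and Hist1h4d span a wide gap in KD and lie close together in WT.

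In sterol synthesis 4 of 26 fell, the enzyme genes Mvd, Fdps and Dhcr7 among them, and 25 of 26 changes were negative (median -0.72, -1.02 in WT). In glycolysis and hypoxia 5 of 31 rose, P4ha1, P4ha2, Bnip3, Ero1l and Adm, with a median of 0.52. Of 19 p53 targets 2 fell, Perp and Plk2. Of 24 imprinted genes 1 rose, Mirg, and 2 fell, H19 (17.5 to 2.36 RPKM) and Peg10 (65.8 to 29.1). The two-cell-like list had the lowest median of the 39 lists (-1.27, with -0.85 in WT and -0.38 in AP3), and 6 of 9 fell, of which 5 are Zscan4 copies that share reads. Zscan4c, for example, went from 2.59 to 0.149 RPKM and Gm4340 from 9.59 to 1.44. None of 21 Polycomb genes, 82 ribosomal protein genes, 13 germline genes or 9 fatty acid synthesis genes passed 2-fold.

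The amino acid stress genes driven by ATF4 fell in 6 of 21 cases and rose in none (median -0.77), with a median of -0.17 in WT. Atf4 went from 219 to 98.0 RPKM, Chac1, which degrades glutathione, from 21.9 to 5.53 and Trib3 from 20.5 to 9.15. Mthfd2, of mitochondrial folate metabolism, was at 107 RPKM at D0 and fell by 1.4 on the log2 scale. Atf5 went from 21.3 to 6.07 RPKM in KD against 14.1 to 14.5 in WT, and Nupr1 from 27.8 to 11.3 against 19.6 to 22.7. In 19 of the 21 the KD change was below the WT change. At D3 the KD library was the lowest of the 3 lines for 17 of the 21, and at D0 it was above WT for 18 but above AP3 for only 5. In AP3, 7 genes of the list fell, with a median of -0.53.

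Over the genes compared in both lines (11937), the change in KD correlated with that in WT at a Pearson r of 0.70, and with that in AP3 at 0.50 (11855 genes). These are correlations across genes, which are not independent replicates, from libraries that the lines do not share. Of the 302 genes that rose in KD, 147 also rose in WT (48.7% of the KD rises and 51.2% of the 287 WT rises). Of the 348 that fell, 190 also fell in WT (54.6% of the KD falls and 56.0% of the 339 WT falls, themselves 2.77% of the genes compared in WT). With AP3 the shared rises were 78 (25.8% of the KD rises and 34.4% of the AP3 rises) and the shared falls 158 (45.4% and 36%), where 3.6% of AP3 genes fell. Only 4 KD rises fell past 2-fold in WT and 7 KD falls rose there.

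The change differed from that of WT by more than 2-fold upwards for 129 genes (1.03% of 12487 genes compared in either line) and downwards for 132 (1.06%). Without small RNA genes, histone cluster genes, Rpph1, Rprl3 and Lars2, these counts were 74 and 61. Among called genes with at least 5 RPKM in the higher KD library, small RNA genes left out, the upper side by the size of the difference held Apoa1 (2.15), Rbp4 (2.12), Ctsh (1.84), Apob (1.8), Ttr (1.71), Folr1 (1.63), Dram1 (1.58), Dab2 (1.48), Tmprss2 (1.47) and Cubn (1.35), all of them genes that rose in KD. Of these 10, 6 are on the endoderm list. Folr1, a folate receptor, went from 9.24 to 21.9 RPKM in KD and from 13.7 to 9.61 in WT, while the others were positive in both lines.

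On the lower side, under the same limits, the leading genes were a mixture. Rpph1, the RNA of ribonuclease P, went from 62.2 to 6.84 RPKM in KD and from 15.8 to 15.1 in WT. Lars2, the mitochondrial leucyl-tRNA synthetase, went from 932 to 208 RPKM in KD, from 345 to 401 in WT and from 352 to 294 in AP3. Rprl3, a copy of the RNA of RNase P, Hist1h4d (12 to 1.65 RPKM), Hist1h4f and Hist1h4a followed, with Atf5, Nupr1, Stra8 and 2810008D09Rik, of which the last rose in KD (1.28) but by less than in WT (2.57). All of these genes except Nupr1 and 2810008D09Rik had their highest level of the 6 libraries in H2A.Z KD D0. Of 60 compared replication-dependent histone genes 28 fell in KD and 8 in WT, none rose, and their medians were -0.95 and -0.46, with 0.19 in AP3. Their summed level went from 917 to 699.5 RPKM in KD and from 902 to 666 in WT, and the most abundant entries, such as Hist1h2ao (-0.06) and Hist1h2ad (-0.17), stayed within 2-fold in KD. Histone cluster copies are close in sequence and their reads may have been split between them. RNase P and replication-dependent histone transcripts mostly lack a poly(A) tail. Their level in a poly(A)-selected library can reflect the selection as well as the cells. That part was not tested, for these genes or for Lars2.

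**Figure D5:**
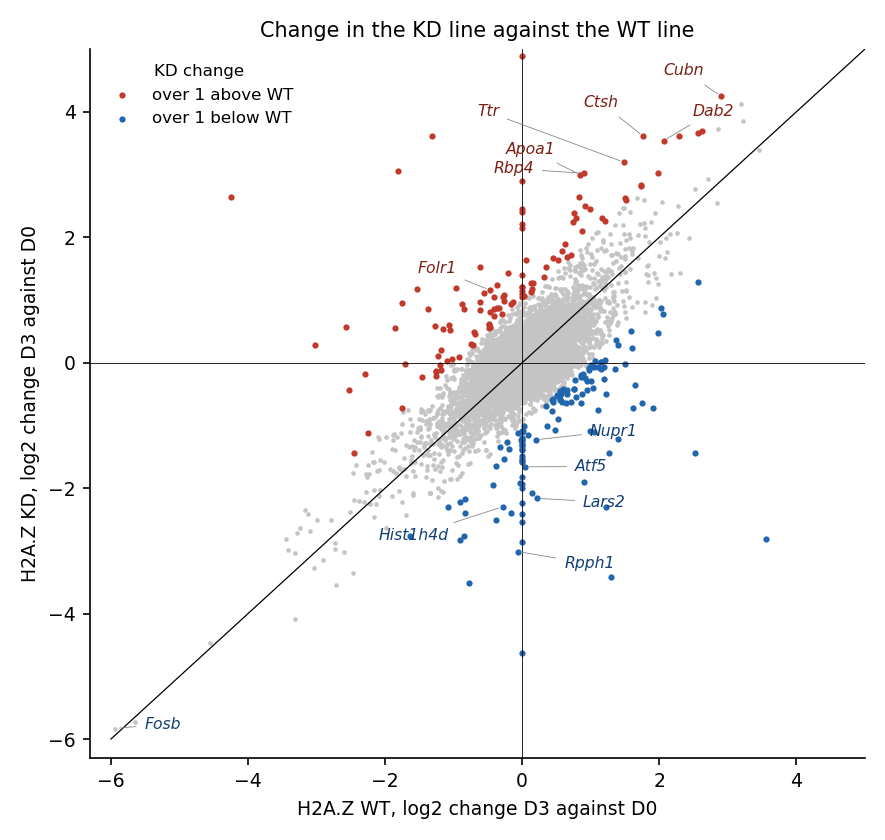
Log2 change from D0 to D3 in H2A.Z KD (y axis) against that in H2A.Z WT (x axis) for the 12184 genes compared in KD, with the diagonal marking equal change. Points in red changed by over 1 log2 unit more in KD than in WT and points in blue by over 1 less, and Apoa1, Rbp4 and Ctsh lie above the diagonal while Rpph1, Lars2 and Atf5 lie below it.

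Promoter sequence was not used to choose any gene, and changed genes had fewer CpG dinucleotides there than genes within 2-fold. In the 300 bases from 250 before to 50 after the start of the longest GENCODE transcript (mm9), genes that rose had a median of 4.17 CpG per 100 bases (294 of 300 genes with a promoter), genes that fell 4 (314 of 334), and genes within 2-fold 7 (11197 of 11450). Without small RNA and histone cluster genes the medians of risen and fallen genes were 4.67 and 5. Genes too low to compare had a median of 1.33. The 26 endoderm genes had a median of 3.67.

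Motifs were counted on both strands of windows placed the same way, over distinct gene symbols, whereas the CpG counts left out symbols with more than 1 entry. The CArG box, bound by SRF, was in 2 of the 14 promoters found for the 15 largest falls, those of Egr1 and Egr2, and in 1.24% of the 11831 promoters of compared genes. Over all fallen genes its share was 2.86% (9 of 315), and over risen genes 1.7%. The octamer ATTTGCAT, read by Oct4 and other POU factors, was in 1.4% of all, 2.04% of risen and 2.86% of fallen genes, and TGACCTTTG, a sequence bound by nuclear receptors such as HNF4A, in 0.372% of all, 1.02% of risen and none of the fallen genes. The GATA sequence AGATAA was in 6.2% of all promoters, in 7.14% of risen genes and in 8.57% of fallen genes. Of the 26 promoters of the endoderm list, 0 held AGATAA, 0 a CArG box, 1 the octamer and 1 TGACCTTTG. A match is a description of letters and not a bound site. Windows of 30 bases from the promoter of Egr2 are printed because this gene was among the largest falls and held both a CArG box and an octamer. The motif is in capitals and the sequence is written 5′ to 3′ along the plus strand of mm9. The CArG window lies at chr10:67000535-67000564, where the motif starts 72 bases before the start site, and the octamer window at chr10:67000479-67000508, 127 bases before it. The octamer reads ATTTGCAT on the minus strand.
Egr2 CArG box: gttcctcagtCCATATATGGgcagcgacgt
Egr2 octamer: gccaagcccgtATGCAAATtggccatgtga

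By chromosome the calls were uneven in a few places. On the X chromosome 21 of 408 compared genes rose (5.15%) and 6 fell, with a median change of 0.16 (0.12 in both other lines), while chromosome 3 had 23 rises among 574 genes (4.01%). On chromosome 13, 38 of 472 fell (8.05%), of which 25 are histone cluster genes, and on chromosome 6, 31 of 554 fell (5.6%), with a median change of -0.06 (-0.11 in WT).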

How the data were processed

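Single-end reads came from poly(A)-selected RNA of the 6 libraries. Alignment to mm9 was done by the authors using TopHat with Bowtie 0.12.7, with up to 2 mismatches and 20 locations per read. The deposited table gives RPKM for each gene, computed by the authors in Cufflinks 1.3.0, and only these values were used. Its log2 columns hold the authors' ratios between lines and were not used. Columns were matched to samples by name, gene starts were raised by 1, and transcript lengths and start sites came from the GENCODE annotation of mm9 (20843 entries matched by symbol).

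A pseudocount of 1 RPKM, a filter of at least 1 RPKM in either library of a line and a 2-fold threshold were used. Depth was estimated on 3696 genes. Lists held 607 distinct genes in 35 lists, of which 7 memberships were not found in the table, plus 4 families defined by symbol. Named genes are H2afz and H2afv, the 15 largest rises and falls of at least 5 RPKM in the higher KD library without small RNA genes, the 10 largest differences from WT in each direction among called genes under the same limits, list members and genes of the qPCR panels of the study. The members, lists and thresholds were chosen with earlier results of these data known. Scripts were tested on simulated data. Values were computed in Python 3.11.15 using pandas 2.3.3 and numpy 2.4.6, intervals in scipy 1.17.1, and plots in matplotlib 3.10.9. Alternatives were other pseudocounts, filters, thresholds, centring and symbol summing. Among the entries, 203 join several symbols, 420 share a symbol and 25 had symbols turned into dates. Some genes are not reported here by name.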

Additional observations from a re-analysis of the deposited data

Results flagged for a closer look

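Among the named genes and list members, those whose change in H2A.Z KD went past 2-fold opposite to a change past 2-fold in another line were small RNA genes, and the differences were not tested. Against H2A.Z WT these were Mir324 (-1.43 in KD), Mir409 (-1.11), Snord73a (-2.31), Snord95 (-3.42) and Snord70 (2.64). Against H2A.Z AP3 they were Mir1894 (-2.86), Mir19a (-2.76), Mir493 (-1.19), Scarna17 (-2.83), Snora17 (-1.13), Snora52 (-1.23), Snora69 (-1.04), Snord64 (-4.62) and Snord83b (-1.38). Against both lines they were Snora2b (-1.44), Snord38a (-2.81) and Snord58b (3.61, and 3.06 in its second entry). Most rest on few reads. Mir19a, for example, was at 5.75 RPKM and a listed 0, about 8.65 reads at D0, and Snora17, with the most reads, was at 19.2 and 8.27 RPKM, about 46.6 and 25.9 reads. Outside the named genes and lists, and chosen after their values were seen, Msmp (1.18 in KD and -1.53 in WT), Slpi (-1.22 in KD and 1.39 in WT) and 9930013L23Rik (1.06 in KD and -1.83 in AP3) also changed in opposite directions.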

How the results depend on the processing

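The counts moved with the pseudocount, the filter and the threshold. Rises, falls, and changes above and below WT numbered 549, 590, 306 and 325 with a pseudocount of 0.1, and 594, 620, 356 and 382 with 0.001. At a 1.5-fold threshold they were 1006, 866, 606 and 631. With at least 5 RPKM, 183 genes fell and the changes above and below WT were 68 and 71, while rises came to 223, within 1.5 times. Without small RNA, histone cluster, Rpph1, Rprl3 and Lars2 entries, a choice made after seeing the data, changes above and below WT were 74 and 61. No filter, median centring and summing entries per symbol kept all 4 counts within 1.5 times. None of 247 single genes or 39 lists changed direction after passing 2-fold. The sign of a gene's change is the same for any pseudocount, and centring shifted changes by only 0.04. These alternatives could therefore not have reversed such a gene, and nothing is concluded from this. Of the single genes, 56 moved with a pseudocount of 0.1, 69 with 0.001 and 1 with centring. The endoderm list's median was 2.83 with a pseudocount of 0.1 and 2.91 with 0.001. No paired analysis was possible because the KD comparison has 1 library per day, and a fit of day over the 3 lines, which was not run, would test a change shared by the lines. Leaving out a library leaves nothing to compare, and under about 1 RPKM a value rests on few reads.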

Other observations

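In a few lists outside the account above single members passed 2-fold, beside 2.48% of all compared genes that rose and 2.86% that fell. Among 8 compared antigen presentation genes B2m, the light chain of class I molecules, rose from 13.9 to 40.9 RPKM in H2A.Z KD, with 22.8 and 43.9 RPKM in H2A.Z WT and 34.7 and 26.2 in H2A.Z AP3. Of 26 cell cycle genes Myc was the 1 that fell, from 6.35 to 2.25 RPKM, which at 3.85% is near the share of all genes. Mki67, a proliferation marker, was at 40.5 and 37.3 RPKM. Of 7 blood and endothelium genes Gata2 fell from 2.00 to 0.447 RPKM and Cd34 from 2.61 to 0.662. Of 13 Notch pathway genes the ligand Dll1 fell from 4.45 to 1.25 RPKM. In the list of epithelial and mesenchymal state, Krt8 and Krt18 rose and Vim fell among 17 compared genes, and the epithelial adhesion genes Cdh1 (96.9 and 83.4 RPKM) and Epcam (93.8 and 104.7 RPKM) stayed within 2-fold. Of 9 DNA methylation genes Dnmt3b was the 1 that rose, while Dnmt3a was at 32.2 and 26.4 RPKM and the demethylating enzyme Tet1 at 54.9 and 36.1.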
